A study of Mus musculus with 16 samples.

Results

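Fibrillins, fibulins and latent TGF-β binding proteins were followed by RNA-seq in cultured mouse astrocytes with and without *Nlrx1*. The group holds 10 of the 16707 genes in the deposited log2 CPM table (CPM, read counts scaled to library size), found by symbol: *Fbn1*, *Fbn2*, *Fbln1*, *Fbln2*, *Fbln5*, *Efemp1*, *Efemp2*, *Ltbp1*, *Ltbp2* and *Ltbp4*. *Fbn2* and *Fbln2* were chosen because they were higher in *Nlrx1*-/- cultures of these same data, so genotype differences are given here as a description, with no test. Astrocytes came from the brains of P6 pups, WT (C57BL6J) or *Nlrx1*-/-, had been selected with beads against the astrocyte antigen ACSA2, and were grown in serum-free medium with heparin-binding EGF. Each of 4 WT and 4 *Nlrx1*-/- (KO) litters gave one well with vehicle (water) and one with lipopolysaccharide (LPS, 500 ng/mL) plus IFNγ (10 ng/mL) for 24 h, for 16 libraries. Both wells of a litter came from the same set of mice, so the litter, not the animal, was the replicate.

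Fibrillins are large secreted glycoproteins that assemble into microfibrils, the scaffold on which elastin is laid down. Fibulins bind microfibrils and elastin and help to cross-link and anchor elastic fibres, with *Efemp1* and *Efemp2* coding for fibulin-3 and fibulin-4. Latent TGF-β binding proteins (LTBPs) share the fibrillin fold, and most of them tether the inactive TGF-β complex to microfibrils until integrins or proteases release it. In the brain these proteins are known mainly from vessels, meninges and the matrix around glia.

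In WT litters, LPS + IFNγ raised 3 of the 10 genes (*Fbn1*, *Efemp2*, *Ltbp1*) and lowered 5 (*Fbln1*, *Fbln2*, *Fbln5*, *Ltbp2*, *Ltbp4*). In KO litters it raised 4 (*Fbn1*, *Fbn2*, *Efemp2*, *Ltbp1*) and lowered 3 (*Fbln1*, *Ltbp2*, *Ltbp4*). These calls are from limma with litter as a block at an adjusted p below 0.05 over all genes. *Fbn2* and *Fbln2* were selected for their KO level in these same libraries. The KO call of *Fbn2* and the lack of a KO call for *Fbln2* are therefore a description only. The background was high: 24.9% of all genes were called higher and 21.9% lower in WT, and 26.6% and 25.5% in KO. Of the calls, 53.2% were higher in WT and 51.1% in KO, beside 39.6% and 39% under quantile normalization. The median log2 response of the 10 genes was -0.40 in WT and 0.05 in KO, beside -0.02 over all genes in each genotype. These medians include *Fbn2* and *Fbln2*, selected for their KO level. The KO median lies between *Fbln5* and *Efemp1*, whose KO responses were -1.38 and -0.88 without KO litters 2 and 4. Nothing is read from the difference between the medians.

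RefSeq promoter windows were matched for 9 of the 10 genes (table built on GRCm38.p6) and placed on GRCm39 by exact match of their 250 bases before the start. The 4 windows printed below are those of 2 genes that rose in both genotypes, of 1 that fell in both and of *Fbln5*, whose KO litters split. Exon bases of GENCODE M39 were cut off the ends, the reading is 5′ to 3′ on the gene's strand, and capitals mark motif matches.
*Ltbp1*, plus strand, chr17:75312274-75312518: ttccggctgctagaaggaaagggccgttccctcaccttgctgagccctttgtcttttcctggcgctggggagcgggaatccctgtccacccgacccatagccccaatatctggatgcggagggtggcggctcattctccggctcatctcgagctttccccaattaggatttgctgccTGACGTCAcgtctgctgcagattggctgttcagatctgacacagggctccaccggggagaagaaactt
*Efemp2*, plus strand, chr19:5523724-5523973: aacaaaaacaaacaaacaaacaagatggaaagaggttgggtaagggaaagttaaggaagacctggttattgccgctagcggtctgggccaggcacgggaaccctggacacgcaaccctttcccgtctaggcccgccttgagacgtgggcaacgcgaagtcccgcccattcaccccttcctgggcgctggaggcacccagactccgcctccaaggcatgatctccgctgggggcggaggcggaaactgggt
*Fbln1*, plus strand, chr15:85089900-85090149: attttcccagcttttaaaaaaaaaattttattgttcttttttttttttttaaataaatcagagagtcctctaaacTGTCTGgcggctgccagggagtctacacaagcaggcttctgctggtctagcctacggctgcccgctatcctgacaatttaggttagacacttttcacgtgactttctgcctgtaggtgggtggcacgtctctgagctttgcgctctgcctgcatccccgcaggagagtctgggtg
*Fbln5*, minus strand, chr12:101785430-101785628: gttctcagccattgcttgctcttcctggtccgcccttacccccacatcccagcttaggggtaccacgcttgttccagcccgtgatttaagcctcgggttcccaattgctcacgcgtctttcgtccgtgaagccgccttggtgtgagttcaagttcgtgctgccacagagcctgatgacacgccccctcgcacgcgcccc
The capitals are a CRE match (TGACGTCA, bases -73 to -66) in *Ltbp1* and a SMAD match (CAGACA on the other strand, bases -175 to -170) in *Fbln1*. In all 32851 windows of the table, 1.55% held the CRE letters and 17.13% the SMAD letters. Both strands were searched for these and for NF-κB (GGGANTTTC, in 0.94% of windows), ISRE (GAAANNGAA, 7.13%) and AP-1 (TGANTCA, 6.75%). The letters of a TATA box (TATAAA) were in 12.37% of windows. No NF-κB or TATA letters were in any window of the 9 genes, AP-1 letters were in *Efemp1*, ISRE letters in *Fbn1*, and SMAD letters also in a second *Fbln5* and a second *Ltbp1* window. This search took whole windows of 250 bases, with exon bases kept. The windows of *Fbn1*, *Fbln2* and *Ltbp2* lie wholly in annotated exons, so the *Fbn1* match is in exon bases. No 2 matches overlapped.

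The libraries held 27259420 to 43752903 reads assigned to transcripts, with a median of 35554625. *Nlrx1* ranged from 4.08 to 4.44 log2 CPM in the WT libraries and from 1.09 to 2.96 in the KO libraries, lower in every KO library but not at 0. All 10 astrocyte markers checked were present, and their summed TPM (transcript abundance scaled for length and depth) ran from 2650 to 6840. The KO litters 2 and 4 stood apart for part of these markers, with *Gfap* at 124 and 249 TPM in vehicle, beside 569 to 2062 in the other 6 litters. *Aqp4*, *Slc1a2*, *Gja1*, *S100b* and *Glul* were also lowest in these litters in vehicle. *Aldh1l1* was not, at 522 and 564 TPM beside 464 to 578. *Sox9* and *Aldoc* in litter 4 and *Slc1a3* in litter 2 also lay within the range of the other litters. Their summed astrocyte markers were 2680 and 2650 after LPS + IFNγ, the lowest of all libraries. Oligodendrocyte-lineage markers were also expressed in all libraries (8 genes, sum 1550 to 3180 TPM, mostly *Olig1*, with *Mog* at 0 in 6 libraries). Markers of fibroblasts, which make many of these matrix genes, summed to 9.32 to 38.6 TPM over 10 genes, highest in the KO 3 litter (38.6 in vehicle, 28.1 after LPS + IFNγ), with *Dpt* and *Slc22a6* at 0 in most libraries. The median of their sum went from 16.5 in vehicle to 11.3 after LPS + IFNγ in WT and from 16 to 13.2 in KO, with 6 of 8 litters lower after stimulation. *Foxc1* did not fall, with means from 2.98 to 3.07 TPM in WT and from 3.85 to 5.33 in KO. *Aldh1a2* did not fall either (0.50 to 0.51 in WT, 0.57 to 0.82 in KO). The other fibroblast markers were lower in mean in both genotypes. The sum of the mural cell markers (6 genes, mostly *Notch3*) was lower after stimulation without overlap. It went from 31.1 to 34.5 TPM in WT vehicle to 20.3 to 22.3 after LPS + IFNγ. In KO it was 28.5 to 33.5 and 16.3 to 20.0. *Notch3* carried most of this fall, with means from 27.4 to 17.1 TPM in WT and from 29.0 to 15.7 in KO. *Rgs5* did not fall (0.77 to 0.84 in WT, 0.47 to 0.95 in KO). *Pdgfrb* fell in WT (3.79 to 2.82) but not in KO (1.65 to 1.86). *Kcnj8*, *Abcc9* and *Myh11* were below 1 TPM in all libraries. Endothelial markers summed to 0.598 to 4.12 TPM (6 genes), microglial ones to 0.051 to 1.68 (7 genes) and neuronal ones to 319 to 430 (6 genes, mostly *Map2*). In these bulk libraries, fewer cells of a type and less RNA per cell cannot be told apart.

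Per transcript length, *Efemp2* (fibulin-4) and *Fbln2* were the most abundant of the group. In WT vehicle *Efemp2* stood at 118 ± 7.19 TPM (SD, n = 4 litters) and *Fbln2* at 89.8 ± 17.5, and the litters of both overlapped. *Fbln1* (44.8 ± 4.52), *Ltbp4* (29.3 ± 3.84), *Fbln5* (8.48 ± 0.296) and *Fbn1* (5.49 ± 0.187) followed, each with all litters above those of the next. The litters of *Efemp1* (3.06 ± 0.842), *Ltbp1* (2.22 ± 0.236) and *Fbn2* (2.02 ± 0.421) overlapped from one gene to the next, and *Ltbp2* was lowest at 0.134 ± 0.114. In KO the order at the top was turned: *Fbln2* averaged 176 ± 76.1 TPM in vehicle and 150 ± 59.6 after LPS + IFNγ, and *Efemp2* 101 ± 14 and 120 ± 10.9, again with overlapping litters.

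**Figure D1:**
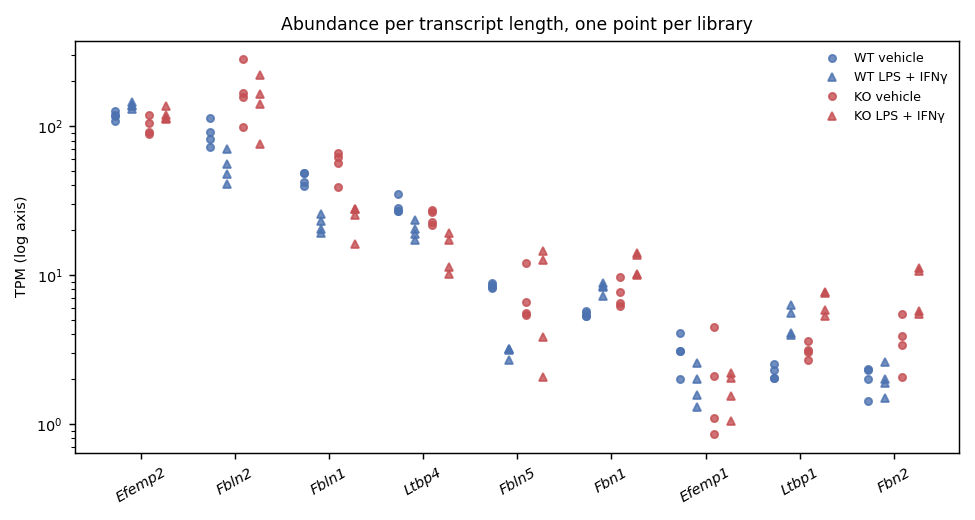
Abundance per transcript length (TPM, log axis) of 9 of the genes, one point per library, WT in blue and KO in red, vehicle as circles and LPS + IFNγ as triangles. *Ltbp2*, which was at 0 in 5 libraries, is left out. *Efemp2* and *Fbln2* lie at the top, and *Fbn2* runs from the bottom in WT (2.02 TPM in vehicle) to 8.25 TPM in KO after LPS + IFNγ.

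*Fbn1*, the main microfibril protein, rose in every litter of both genotypes. Vehicle levels were 4.96, 4.84, 4.91 and 4.77 log2 CPM in WT litters 1 to 4, and 5.67, 5.62, 5.58 and 5.69 after LPS + IFNγ. KO litters went from 5.00, 5.70, 5.07 and 5.26 to 5.81, 6.37, 5.84 and 6.41. The vehicle and stimulated litters did not overlap in either genotype, and within each treatment all KO litters lay above all WT litters. The log2 response was 0.77 ± 0.08 (SE) in WT (limma adjusted p = 7.86e-06) and 0.85 ± 0.08 in KO (limma adjusted p = 2.84e-06). Exons of *Gm9913* on the opposite strand cover 20.1% of the exon bases of *Fbn1*, and these libraries do not tell the strands apart.

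*Fbn2*, the fibrillin best known from development, did not pass the test in WT and rose in KO. WT vehicle litters were at 3.53, 2.86, 3.52 and 3.35 log2 CPM, and their stimulated wells at 3.88, 3.18, 3.48 and 3.53. KO litters went from 3.4, 4.88, 4.34 and 4.16 to 5.00, 6.09, 5.03 and 6.01, so every stimulated KO well was above every other library of the series for this gene. The response was 0.20 ± 0.15 (SE) in WT (limma adjusted p = 0.305) and 1.34 ± 0.15 in KO, a 2.53-fold rise. No p-value is given for the KO response, since the stimulated KO wells are among the libraries in which the gene was selected. The responses differed by 1.14 ± 0.22 log2, given as a description because the gene was selected for its KO level, and the 4 KO responses (1.59, 1.21, 0.69 and 1.85) lay above the 4 WT responses. KO litters 2 and 4, those with the lowest *Gfap*, were also the 2 highest for *Fbn2* after LPS + IFNγ. Without them, a choice made after the data were seen, the KO response was 1.14 and the difference of the responses 0.94.

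**Figure D2:**
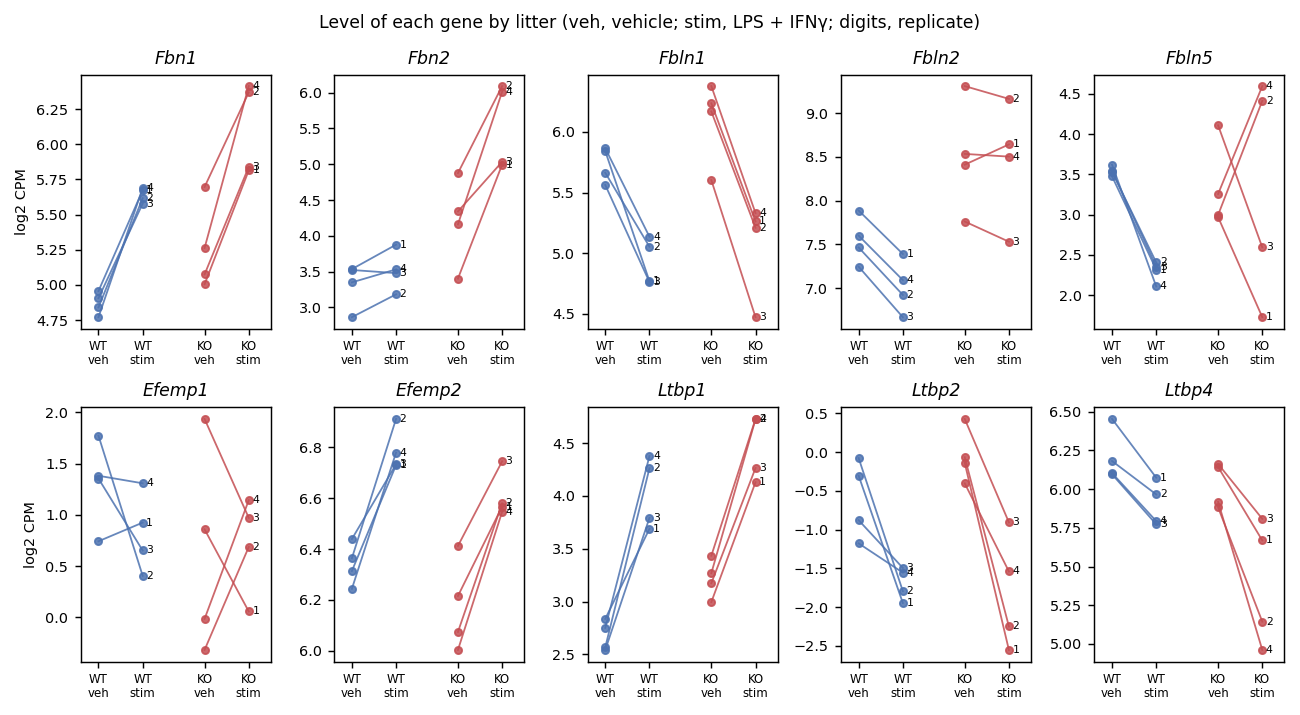
Log2 CPM of the 10 genes by litter, WT in blue and KO in red, each line joining the vehicle (veh) and the LPS + IFNγ (stim) well of 1 litter, with the litter number at its right end. All lines of *Fbn1*, *Efemp2* and *Ltbp1* rise and all lines of *Fbln1*, *Ltbp2* and *Ltbp4* fall, while the KO lines of *Fbln5* and *Efemp1* cross. The vertical scale differs between the panels.

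*Fbln1*, a fibulin of basement membranes and elastic fibres, fell in every litter. WT litters went from 5.84, 5.66, 5.56 and 5.87 log2 CPM to 4.77, 5.05, 4.76 and 5.14, and KO litters from 6.24, 6.17, 5.60 and 6.38 to 5.26, 5.21, 4.47 and 5.33. No stimulated litter reached a vehicle litter of its genotype. The mural marker sum, mostly *Notch3*, and the median of the fibroblast sum were also lower after stimulation, but *Foxc1* of the fibroblast list was not. The part of these markers in the fall of *Fbln1* and in that of *Fbln5* in WT was not tested. The log2 responses were -0.80 ± 0.07 in WT and -1.03 ± 0.07 in KO (SE, limma adjusted p = 3.4e-06 and 3.46e-07). Of its 2 transcript models in the quantification, 1 held most of the RNA in all 4 conditions, with mean shares of 75.6% to 80.2% of the gene's TPM.

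*Fbln2*, a larger fibulin of the same matrix, fell in WT, while its mean response in KO was small. WT litters were at 7.89, 7.47, 7.25 and 7.60 log2 CPM in vehicle and 7.39, 6.92, 6.67 and 7.09 after LPS + IFNγ. The fall was nearly the same in each litter, from -0.50 to -0.58, although the litters themselves differed by more than that. KO litters were at 8.41, 9.31, 7.76 and 8.53 in vehicle and 8.64, 9.16, 7.53 and 8.50 after LPS + IFNγ, with litter 1 higher and litters 2, 3 and 4 lower than their own vehicle. The log2 response was -0.53 ± 0.06 (SE) in WT (limma adjusted p = 3.42e-05) and -0.04 ± 0.06 in KO. Under quantile normalization the KO response was -0.25. No p-value is given for the KO response, since the gene was selected for its KO level in these same libraries. The response differed by 0.49 ± 0.09 between genotypes, again as a description, and the 4 KO responses lay above the 4 WT responses. Responses lay wholly above those of WT for 2 of the 10 genes, *Fbn2* and *Fbln2* (3.06% of all genes), and wholly below for none (5.25%). These 2 genes were selected for their KO level in the same libraries, so nothing is read from the count.

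*Fbln5*, which binds elastin and cells through integrins, fell in all WT litters and split in KO. WT litters went from 3.48, 3.53, 3.54 and 3.62 log2 CPM to 2.32, 2.41, 2.36 and 2.11. KO litters 1 and 3 fell likewise, from 2.97 to 1.73 and from 4.11 to 2.59, whereas litters 2 and 4 rose from 3.0 to 4.41 and from 3.26 to 4.60. The log2 response was -1.25 ± 0.42 (SE) in WT (limma adjusted p = 0.0277) and -0.00 ± 0.42 in KO (limma adjusted p = 1). The spread of the KO litters enters the WT error in this fit: with each genotype on its own libraries, also chosen after the data were seen, the WT response had an adjusted p of 2.59e-06 in limma. Leaving out any 1 WT litter ended the WT call, with adjusted p from 0.0677 to 0.0929. Without KO litters 2 and 4 the KO response was -1.38 (limma adjusted p = 3.46e-05). Those 2 litters were also the lowest for *Gfap*, and the part of this in their *Fbln5* response was not tested.

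*Efemp1* (fibulin-3) was low and showed no called response. Its WT litters ran from 0.74 to 1.77 log2 CPM in vehicle and from 0.41 to 1.31 after LPS + IFNγ. KO litters 2 and 4 rose, from -0.32 to 0.69 and from -0.01 to 1.14, and litters 1 and 3 fell, from 0.86 to 0.06 and from 1.94 to 0.97, the same 2 against 2 as for *Fbln5*. In vehicle the KO 3 litter, highest for fibroblast markers, was the highest KO litter for both *Fbln5* and *Efemp1*, and the part of those markers in it was not tested. The responses were -0.49 ± 0.39 in WT and 0.10 ± 0.39 in KO (SE, limma adjusted p = 0.32 and 0.85).

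*Efemp2* (fibulin-4), which recruits lysyl oxidase to elastic fibres, rose by a similar amount in all 8 litters. WT litters were at 6.31, 6.36, 6.44 and 6.24 log2 CPM in vehicle and 6.73, 6.91, 6.73 and 6.78 after LPS + IFNγ. KO litters were at 6.22, 6.07, 6.41 and 6.00, and then 6.57, 6.58, 6.75 and 6.55. Stimulated and vehicle litters did not overlap in either genotype. The log2 response was 0.45 ± 0.06 in WT and 0.43 ± 0.06 in KO (SE, limma adjusted p = 6.23e-05 and 6.83e-05), with a difference of -0.02 ± 0.08.

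**Figure D3:**
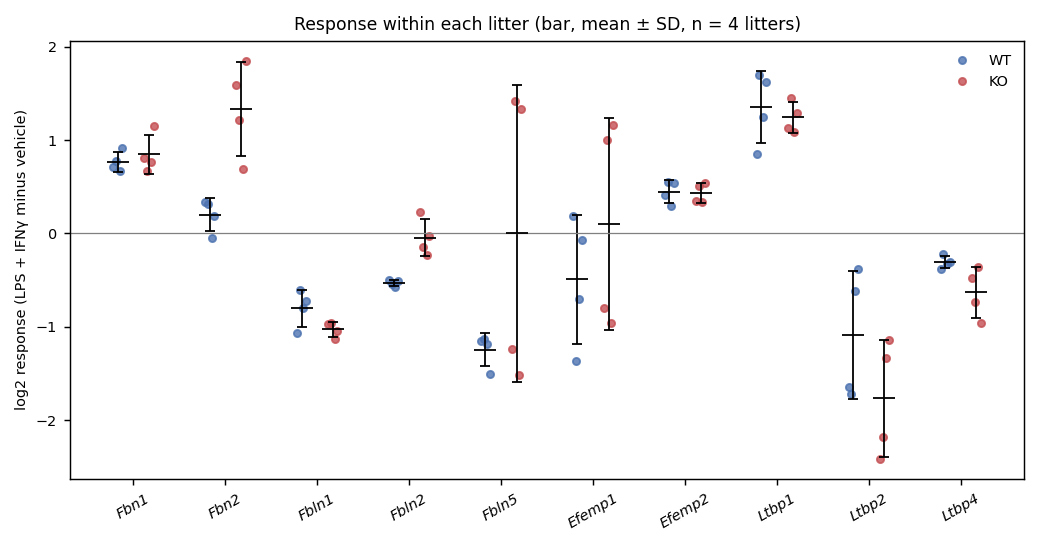
Log2 response to LPS + IFNγ (stimulated minus vehicle well of the same litter) for the 10 genes, one point per litter, WT in blue and KO in red. Black bars give the mean and SD of 4 litters. *Ltbp1* has the largest mean rise in WT (1.36), *Fbn2* and *Fbln2* separate by genotype, and the KO points of *Fbln5* reach from -1.51 to 1.42.

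*Ltbp1*, which tethers latent TGF-β1 in the matrix, had the largest rise of the group in WT. WT litters went from 2.84, 2.57, 2.54 and 2.75 log2 CPM to 3.69, 4.26, 3.79 and 4.38, and KO litters from 2.99, 3.27, 3.17 and 3.43 to 4.13, 4.72, 4.26 and 4.73. Every stimulated litter was above every vehicle litter. The rise was 2.56-fold in WT and 2.37-fold in KO (log2 1.36 ± 0.14 and 1.24 ± 0.14, SE, limma adjusted p = 7.25e-06 and 1.19e-05). The window printed above with the CRE letters is that of this gene.

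*Ltbp2*, an LTBP that does not bind latent TGF-β, was near the limit of detection. Its level was -0.30, -0.08, -0.88 and -1.18 log2 CPM in WT vehicle and -1.95, -1.79, -1.49 and -1.55 after LPS + IFNγ. KO litters went from -0.14, -0.06, 0.43 and -0.40 to -2.55, -2.25, -0.91 and -1.54. These levels correspond to an estimated 3.84 to 47.7 reads per library, and in the transcript files the gene summed to 0 TPM in 5 stimulated libraries, 2 of WT and 3 of KO. All 8 litters fell, by 1.09 ± 0.39 on the log2 scale in WT (limma adjusted p = 0.0369) and by 1.77 ± 0.39 in KO (limma adjusted p = 0.00237). The WT call was lost without WT litter 1, 2 or 3 (adjusted p = 0.142, 0.154 and 0.0547, limma), under quantile normalization (0.0541), and in edgeR and DESeq2 on summed counts (adjusted p = 0.375 and 0.186). The KO log2 response ran from -0.62 on log2(CPM + 1) to -3.56 in edgeR and -4.86 in DESeq2.

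*Ltbp4*, needed with fibulin-4 and fibulin-5 for elastic fibre assembly, was the most abundant per length of the 3 LTBPs in the group and fell in every litter. WT litters went from 6.45, 6.18, 6.10 and 6.10 log2 CPM to 6.07, 5.97, 5.77 and 5.79. KO litters went from 6.14, 5.88, 6.16 and 5.92 to 5.67, 5.14, 5.81 and 4.96, with litters 2 and 4 the lowest. The log2 response was -0.31 ± 0.08 in WT and -0.63 ± 0.08 in KO (SE, limma adjusted p = 0.0103 and 6.2e-05). Without KO litters 2 and 4 the KO response was -0.41 (limma adjusted p = 0.000478). The leading transcript model of *Ltbp4* held 88.2% ± 3.26 (SD, n = 4 litters) of its TPM in WT with vehicle and 94.5% ± 1.54 after stimulation, and 92.2% ± 2.02 in KO with vehicle and 78.2% ± 10.1 after stimulation.

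The test of the genotype difference in response was read for the 8 genes other than *Fbn2* and *Fbln2*. None was called by limma, where 0% of all 16707 genes were called. An unadjusted p below 0.05 was found for 1 of the 8 (*Ltbp4*, adjusted p = 0.216), beside 2786 of all 16707 genes, so it does not stand out from the background. edgeR and DESeq2 also called 0 of the 8, each with 1 at an unadjusted p below 0.05, beside 2553 and 2488 of 16062 genes, while over all genes edgeR called 0 and DESeq2 278. *Fbln5* had the widest difference, 1.25 ± 0.59 (SE, limma adjusted p = 0.314), and without KO litters 2 and 4 it was -0.13 (limma adjusted p = 0.88).

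The levels of the genotypes are given as a description. In vehicle all KO litters lay above all WT litters for 2 genes, *Fbn1* and *Ltbp1*, beside 6.02% of all genes, and below for 0, beside 3.43%. After LPS + IFNγ they lay above for 3, *Fbn1*, *Fbn2* and *Fbln2*, beside 7.09% of all genes, and below for 0, beside 6.23%. Since *Fbn2* and *Fbln2* were selected on this contrast, nothing is read from these counts against the background.

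*Fbn2* was 0.88 ± 0.30 log2 higher in KO than in WT in vehicle (SE) and 2.02 ± 0.30 after LPS + IFNγ, 1.84-fold and 4.04-fold, and only KO litter 1 overlapped WT, in vehicle. *Fbln2* was 0.95 ± 0.31 higher in vehicle and 1.44 ± 0.31 after LPS + IFNγ, with KO litter 3 within the WT range in vehicle. *Fbn1* differed by 0.39 and 0.47 (SE 0.15), and *Ltbp1* by 0.54 and 0.43 (SE 0.17). *Efemp2* was lower in KO by a small amount, -0.16 and -0.18 (SE 0.08), and *Ltbp4* by -0.18 and -0.51 (SE 0.15). The remaining 4 genes had differences of -0.70 to 1.03, with litters that overlapped in both treatments. Without KO litters 2 and 4, *Fbn2* was higher in KO by 0.55 in vehicle and 1.5 after LPS + IFNγ, *Fbln2* by 0.54 and 1.07, *Fbn1* by 0.17 and 0.19, and *Ltbp1* by 0.41 and 0.17. Without the same litters the difference after LPS + IFNγ turned from 1.03 to -0.14 for *Fbln5* and went from -0.51 to -0.16 for *Ltbp4*. The counts changed with single litters, most with KO litter 3. Without it 4 genes lay above WT in vehicle (with *Fbln1* and *Fbln2* added) and 4 after LPS + IFNγ. In each treatment 2 then lay below, *Fbln5* and *Efemp2* in vehicle and *Efemp2* and *Ltbp4* after LPS + IFNγ. Without KO litter 1 the genes above were 3 in vehicle and 4 after LPS + IFNγ, and without WT litter 1 they were 3 in vehicle. Fewer litters separate more easily, and no share over all genes was computed for these settings, so nothing is read from these counts.

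**Figure D4:**
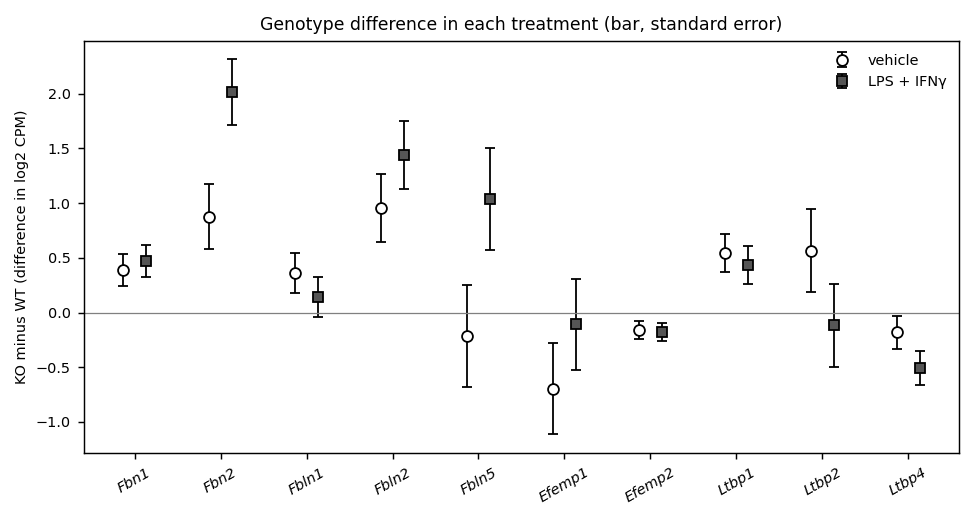
Difference in log2 CPM between KO and WT for the 10 genes, in vehicle (open circles) and after LPS + IFNγ (filled squares), n = 4 litters per genotype. Bars give the standard error of a fit over all 16 libraries with no litter term, shared by both treatments. *Fbn2* has the largest difference, 2.02 after LPS + IFNγ, and *Fbln5* changes from -0.21 in vehicle to 1.03 after LPS + IFNγ, a value that is -0.14 without KO litters 2 and 4.

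Across the 16 libraries, the genes whose log2 CPM ran most like *Fbn2*, among 12599 genes with a mean of at least 1, were *Ttc37* (Pearson r = 0.965), *Wdr36* (0.947) and *Mybbp1a* (0.944). For *Fbln2* they were *Ccbe1* (0.957), *Ptpro* (0.944) and *Cmya5* (0.936). The 16 points share litters and treatments, so these values only describe likeness.

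Among the genes that work with this group in elastic fibres, more were called lower than higher after LPS + IFNγ. Of 25 elastic fibre partners, 4 were called higher and 12 lower in WT, beside 24.9% and 21.9% of all genes, and 9 did not pass the test. In KO 4 were called higher and 11 lower, beside 26.6% and 25.5%, and 10 did not pass. The median log2 responses were -0.48 and -0.55, beside -0.02 over all genes. *Eln*, the elastin gene itself, fell by 1.13 ± 0.13 on the log2 scale in WT and by 1.61 ± 0.13 in KO (SE, limma adjusted p = 2.32e-05 and 1.05e-06). *Adamts10*, a protease family member tied to fibrillin-1 microfibrils, fell by 0.99 and 1.02, and *Thsd4* (ADAMTSL6), which promotes fibrillin-1 assembly, by 1.7 and 1.63. *Loxl1*, a cross-linker of elastin, rose by 0.79 ± 0.11 and 0.90 ± 0.11, *Adamts6* by 0.68 and 0.94, and *Adamtsl3* by 1.16 and 1.20. All 6 were called in both genotypes and moved the same way in all 8 litters. *Thsd4* was low, at a mean of 0.04 log2 CPM, and its KO call was lost under some alternative processing. The mural marker sum, mostly *Notch3*, and the median of the fibroblast sum were also lower after stimulation, but *Foxc1* of the fibroblast list was not. The part of these markers in the falls of *Eln* and of the other partners was not tested. *Ltbp3*, an LTBP outside the group that was looked up after the values were seen, fell by 0.48 in WT and by 0.41 in KO.

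Of 16 measured genes that hold or release latent TGF-β, 5 were called higher and 4 lower in WT, and 6 and 4 in KO, with medians of 0.02 and 0.17. These counts lie near the shares of all genes called, 24.9% and 21.9% in WT and 26.6% and 25.5% in KO, so nothing is read from them about the list. *Itgb3* and *Itgav*, subunits of a TGF-β activating integrin, rose by 2.07 ± 0.28 and 0.60 ± 0.05 on the log2 scale in WT and by 1.3 ± 0.28 and 0.42 ± 0.05 in KO. *Mmp14*, a membrane protease, rose by 0.53 and 0.62, whereas *Mmp2*, the gelatinase it activates, fell by 1.26 and 0.53. *Itgb8*, the subunit of the other activating integrin of glia, fell by 0.19 and 0.22 (SE 0.05). The calls of *Mmp2* in KO and of *Itgb8* in both genotypes were lost under some alternative processing.

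Of 12 genes known to respond to TGF-β, 2 were called higher and 7 lower in WT, and 1 and 4 in KO, with medians of -0.41 and -0.25, beside the same shares of all genes. *Tgfbi* rose by 1.13 ± 0.30 in WT and by 1.27 ± 0.30 in KO, and its WT call was lost under some alternative processing. *Col1a2*, a collagen chain that is also in the fibroblast list, fell by 0.82 and 0.68 (SE 0.14), and the feedback repressors *Skil* and *Ski* fell by 0.30 and 0.27 and by 0.15 and 0.16. *Ski* lost its call in WT when any 1 WT litter was left out (adjusted p from 0.0529 to 0.113, limma), and in KO without KO litter 2 or 3 (adjusted p = 0.0719 and 0.112, limma). Without litter as a block, *Skil* (adjusted p = 0.263 in WT and 0.283 in KO, limma) and *Col1a2* (0.122 and 0.186) also lost their calls. The part of the fibroblast markers and of the mural marker sum, mostly *Notch3*, in the fall of *Col1a2* was not tested.

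**Figure D5:**
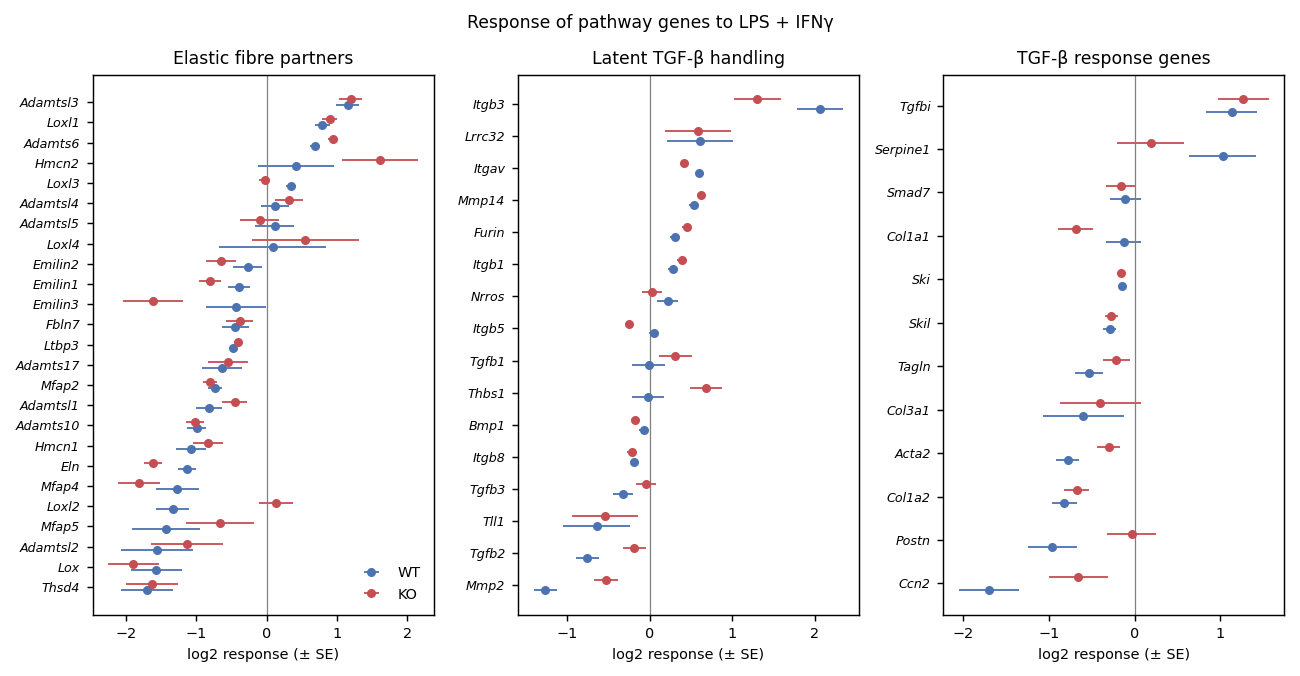
Log2 response to LPS + IFNγ with its standard error for 53 genes in 3 lists, WT in blue and KO in red, n = 4 litters per genotype, genes sorted by the WT response. Of the 25 elastic fibre partners, 17 lie left of 0 in WT and 18 in KO, called or not, with *Eln* at -1.13 in WT and -1.61 in KO, and the genes handling latent TGF-β lie on both sides, from *Itgb3* at 2.07 to *Mmp2* at -1.26 in WT.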

How the data were processed

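RNA of 16 astrocyte cultures (polyA, non-stranded, paired reads) was quantified by the authors with Salmon 1.7.0 on the GRCm39 transcriptome, which gives expected counts and TPM per transcript in the deposited files. The authors summed these to genes, filtered low genes and deposited a CPM table, a signal scaled by TMM-adjusted library sizes, and its log2 values. The effective transcript lengths deposited beside them are in another unit (bases).

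Responses were fitted on the deposited log2 CPM with limma 3.58.1 (lmFit, eBayes with a trend), with terms for litter within genotype and for treatment within genotype, over all 16707 genes, p-values adjusted by Benjamini-Hochberg, called below 0.05. Litters are paired because the labels state that both wells came from the same mice. Deviations from the condition means correlated at r from 0.073 to 0.355 across genes between the libraries of a litter. Wells of different litters were not compared, so these values are no check of the pairing. Genotype differences are given without a test. Their standard errors come from a limma fit of the 4 conditions over all 16 libraries with no litter term. They are shared by both treatments and are not the spread of the litters within 1 treatment. TPM were summed per gene over transcripts with a symbol (96.7% to 97.3% of reads). The tests were checked on simulated data. Counts summed per gene were rounded for edgeR 4.0.16 and DESeq2 1.42.0, used as alternatives together with others given in the closing section. R 4.3.3, Python 3.11.15 and matplotlib 3.10.9 were used.

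The members and gene lists were chosen with earlier results of these data known. All members are named. Of each pathway list, the 3 genes with the largest rise and the 3 with the largest fall, called in both genotypes with a mean of at least 0 log2 CPM, are named. Reads on opposite strands cannot be told apart: beside *Gm9913* over *Fbn1*, GENCODE M39 places exons of *D030025P21Rik* over 9.34% of the exon bases of *Ltbp2*, and of other genes over 0.88% to 6.81% of *Fbn2*, *Efemp2* and *Ltbp4*. Positions are on GRCm39. *Fbn2* has no promoter shown.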

Additional observations from a re-analysis of the deposited data

Results flagged for a closer look

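Of 60 groups of 4 litters checked (levels and responses of the 10 genes), 3 had 1 litter far from the others, with a gap, as a share of the group's range, above Dixon's critical value, and chance alone gives about 1 in 20, or 3. *Fbln1* after LPS + IFNγ was lowest in KO litter 3, at 4.47 log2 CPM beside 5.21 to 5.33 in the other 3 (gap over range 0.859). *Efemp2* after LPS + IFNγ was highest in the same litter, at 6.75 beside 6.55 to 6.58 (0.832). The *Fbln5* response in WT was lowest in litter 4, at -1.51 beside -1.19 to -1.13 (0.841).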

How the results depend on the processing

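Quantile normalization turned the split of calls over all genes from 53.2% to 39.6% higher in WT and from 51.1% to 39% in KO, and moved the median response of all genes by -0.08 and -0.07. The counts of members called higher were 3 in WT and 4 in KO under every alternative tried, the KO count with *Fbn2*, which was selected for its KO level. The 5 members lower in WT became 3 without the replicate block (*Fbln2* adjusted p = 0.201, *Ltbp4* 0.135), 2 at adjusted p below 0.01, and 3 to 5 with 1 litter left out. Pathway genes lower in KO became 12 without the replicate block, beside 19. Members above WT in every KO litter in vehicle were 2, and 2 to 4 with 1 litter left out, and members below were 0, and 0 to 2 in vehicle and after LPS + IFNγ. Fewer litters separate more easily and the share of all genes was not computed with 1 litter left out, so nothing is read from these ranges. A replicate block across genotypes cannot move a difference of means in this balanced design, so its values (*Fbn2* 0.88 and 2.02) are the same by construction and say nothing of stability.

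The *Fbln2* response in KO ran from -0.136 to 0.0183 with 1 KO litter left out (above 0 without KO replicate 3). It was 0.0005 without KO litters 2 and 4, and -0.252 when quantile-normalized. These values are a description, as the gene was selected for its KO level. *Fbln5* in KO was 0.0623 in edgeR, 0.0209 in DESeq2, 0.0375 on log2(CPM + 1), and -0.472 to 0.504 with 1 litter left out. *Efemp1* in KO was -0.254 to 0.454 with 1 litter left out and -0.883 without KO litters 2 and 4. Of the differences in response, *Fbln5* was -0.132 and *Efemp1* -0.393 without KO litters 2 and 4. With 1 litter left out, the difference ran from -0.0215 to 0.138 for *Fbn1*, from -0.0669 to 0.0184 for *Efemp2* and from -0.279 to 0.0017 for *Ltbp1*. None of these differences was called. A filter at a mean of 1 log2 CPM left out *Efemp1* and *Ltbp2*, whose few reads limit their precision. For single genes, 1255 of the other values kept their direction and side of the threshold, or stayed within the litter spread, 41 lost a call and 2 gained one.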
